A study of Drosophila melanogaster with 8 samples.

Results

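Splicing regulators are RNA-binding proteins that decide which exons of a transcript are kept, and 37 of their genes and of the spliceosome genes beside which they work were followed in cultured L57 cells of the fruit fly after juvenile hormone III (JH III). The genes were taken by name from the array's annotation. They comprise 24 regulators, which bind RNA outside the splicing machinery, and 13 members of the core machinery itself. A probe set that names the gene alone was found for 29 genes (19 regulators and 10 core members), and 28 of them (18 regulators and 10 core members) were bright enough to be tested, out of 6865 genes tested in all. The regulators how, x16, sqd, rump and bru1 and the core members snf, snRNP-U1-C and hoip had no such probe set and are not analysed here. The muscleblind gene mbl had one, but its signal, 7.98 to 83.0 over the arrays, was on average under the brightness filter.

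RNA was measured on 8 single-colour Affymetrix arrays in 4 groups of 2. The control group received the solvent DMSO alone, for a time that the labels do not give. The other groups received 1 µM JH III, a hormone of insects that acts in larval growth and in reproduction, for 3, 6 or 12 h. All 4 groups are the same L57 line, grown in medium with serum, and DMSO arrays matched to 3, 6 or 12 h are not labelled, so time in culture and time in hormone cannot be told apart. The labels do not say that the replicates were separate cultures, so the p-values measure the spread between these arrays, which may be technical.

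Splicing proceeds in steps that the gene groups below follow. The U1 particle and the U2AF proteins recognise the ends of an intron, rings of Sm proteins hold the small nuclear RNAs, and the Prp proteins build the catalytic centre. SR proteins, with arginine and serine repeats, mostly bind exons and promote their inclusion, whereas hnRNP proteins coat the transcript and often repress splice sites. KH-domain proteins bind short single-stranded motifs and act in either direction. In Drosophila, splicing regulators are best known from sex determination, where Sxl and tra2 control a cascade of alternative exons.

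Values are the linear signal that the authors' array software gave each probe set. They were compared as log2(signal + 25), so the changes of dim probe sets are understated; folds are on that scale and the error after a log2 change is the SE of the fit. A call is an adjusted p under 0.05 in a limma fit over 8380 probe sets. The 6 h replicate 2 array was unreadable for 22.5% of its probe sets, in 2 stretches. Of the 28 genes, 13 were readable on all 8 arrays and 15 had 1 readable array at 6 h, whose error is borrowed from the other groups. The median signal of the probe sets readable on every array was 70.9 and 72.9 in DMSO and 79.5 to 86.0 in JH III, and replicate arrays correlated at 0.971 to 0.980 against 0.965 to 0.977 between groups. Array controls for RNA integrity, the 3′ over 5′ log2 ratios, differed from DMSO at 3 h by 0.19 ± 0.13 for actin, by -0.025 ± 0.041 for Gapdh and by 0.29 ± 0.13 for eIF4A (SE, n = 2), and their part in the results was not tested. Blood-cell (hemocyte) markers were detected above the filter for 7 of 10 genes, muscle markers for 1 of 6, fat body markers for 2 of 6, germline markers for 3 of 5 and neuronal markers for 0 of 6. 1 DMSO array is labelled with embryos as well as L57, while its growth protocol describes the cultured line.

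After 3 h of JH III, 12 of the 28 tested genes had changed, 8 upward and 4 downward. The background was 18.8% of all 8380 probe sets called at 3 h, 10.6% higher and 8.16% lower. Among the 2793 brightest, which held 11 of the regulators and 9 of the core members, 14.2% were higher and 20.3% lower. Of the 18 regulators, 7 rose and only SC35 fell, and of the 10 core members, Prp8 rose and SmB, U2af38 and U2af50 fell. The median log2 change was 0.33 in the regulators and -0.17 in the core members, against 0.03 over all probe sets. The 3 h arrays did not overlap DMSO in 16 genes that were higher and 8 that were lower, a separation that 34.6% and 27.8% of all probe sets also showed. Without either DMSO array, or without either 3 h array, the count of 12 dropped to 5 in each of the 4 cases. It was 6 with no variance trend and 7 with no filter on dim probe sets, where glo, Prp8, qkr58E-2, tra2 and U2af50 were not called (adjusted p = 0.055, 0.0569, 0.0553, 0.0735 and 0.069). The split of calls depended on the scale: after centring each array on its median, which lowered every 3 h change by 0.16, 3 genes were called higher and 8 lower in place of 8 and 4.

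At 6 h, 5 genes were called higher and 5 lower, where the background was 13.5% of probe sets (7.32% higher and 6.21% lower). All 5 higher genes were regulators (qkr58E-1, Sxl, Hrb27C, Hrb87F and glo), and the lower genes were SC35 and 4 of 10 core members (U2af38, SmB, SmD1 and SmD2). The medians were 0.21 for regulators and -0.15 for core members, against 0.05 overall. Separate from DMSO at 6 h were 12 higher and 9 lower genes (37.1% and 28.2% of all probe sets), counting the genes with 1 readable array. A single array clears the DMSO arrays more easily than a pair does. Of the 28 genes 15 had 1 readable 6 h array, against 2611 of the 8380 probe sets, so these counts and shares are not like for like. Centring the arrays on their medians lowered the 6 h changes by 0.165 in genes with both 6 h arrays and by 0.134 in those with 1, and left 1 gene called higher and 7 called lower. Leaving out 1 array changed the count of 10 to 6 without DMSO replicate 1, to 2 without DMSO replicate 2, to 6 without 6 h replicate 2 and to 1 without 6 h replicate 1, where only 13 of the genes kept a 6 h value. At 12 h, only Hrb27C and SmB were called, both higher, against a background of 5.92% (3.34% higher and 2.58% lower), and the medians were 0.08 and 0.06. Separate from DMSO at 12 h were 14 higher and 5 lower genes (26.1% and 25.6% of all probe sets). With median centring, which lowered the 12 h changes by 0.13, glo, SmD3 and U2af50 were also called, all lower, giving 2 higher and 3 lower. The 12 h count was 0 without DMSO replicate 2, and 1 without DMSO replicate 1 or without 12 h replicate 2.

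**Figure D1:**
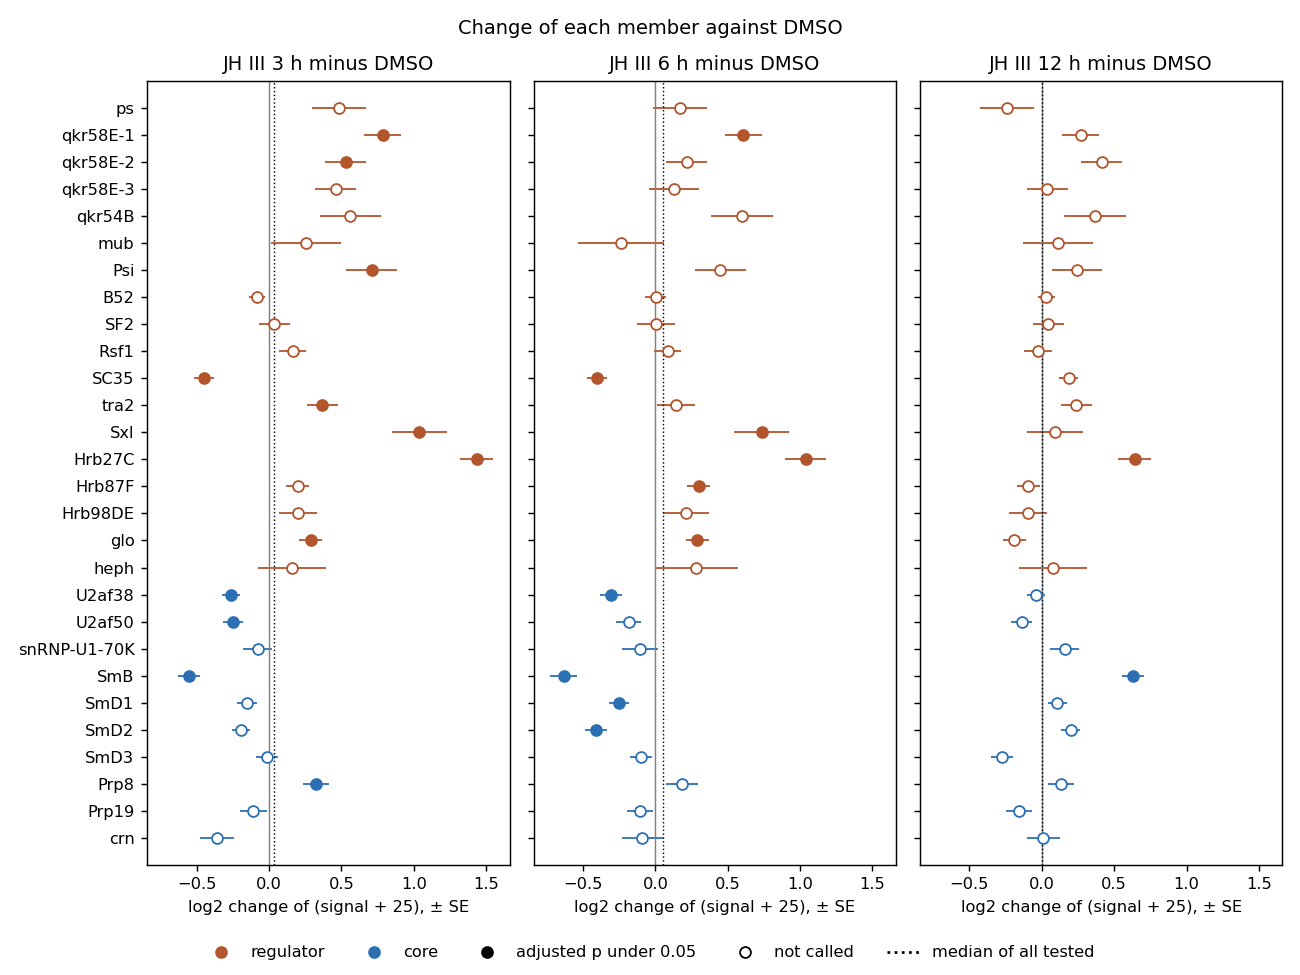
The log2 change of (signal + 25) against DMSO is plotted for each tested gene at 3, 6 and 12 h, with its SE; filled points passed an adjusted p under 0.05 and the dotted line is the median of all tested probe sets. Regulators lie mostly to the right at 3 h, where 7 of 18 were called higher, and core members mostly to the left, where 3 of 10 were called lower.

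KH-domain regulators had a median change of 0.53 at 3 h, the highest of the families with more than 1 tested gene, and 3 of 7 tested rose while none fell. Of all probe sets, 10.6% were called higher and 8.16% lower at 3 h. The family's median was 0.22 at 6 h, with 1 gene called higher, and 0.24 at 12 h, with none called. The qkr58E genes are relatives of the mammalian STAR-family RNA-binding proteins and lie side by side in the genome, with 1 other gene, PolE4, between them. qkr58E-1 gave 912 and 687 in DMSO, 1352 and 1415 at 3 h, 1197 and 1242 on the 6 h arrays and 916 and 1002 at 12 h. All 4 arrays at 3 and 6 h lay above both DMSO arrays. The 12 h arrays also lay above both but were nearer to them, the lower only narrowly above (916 against 912). It rose 1.72-fold at 3 h (log2 change 0.79 ± 0.13, adjusted p = 0.00341) and 1.52-fold at 6 h (log2 change 0.61 ± 0.13, adjusted p = 0.0146). The 3 h call was kept when any 1 array was left out, but at 6 h it was lost without DMSO replicate 2 (adjusted p = 0.0931), without either 6 h array (0.0587 and 0.0629) and with median centring (0.0527).

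Its neighbour qkr58E-2 gave 555 and 767 in DMSO, 1007 and 903 at 3 h, 765 and 762 on the 6 h arrays and 885 and 872 at 12 h. The DMSO arrays differed from each other more than the JH III arrays did within any group. The 3 h and 12 h arrays lay above both DMSO arrays, and the 6 h arrays lay between them. The 12 h change of qkr58E-2 was 0.41 ± 0.14 and was not called (adjusted p = 0.12). It rose at 3 h (log2 change 0.53 ± 0.14, adjusted p = 0.0303), a call lost without DMSO replicate 1 (adjusted p = 0.179), without 3 h replicate 1 (0.167), without 3 h replicate 2 (0.0743) and with median centring (0.0847). For qkr58E-3 the signals were 588 and 571 in DMSO and 704 and 922 at 3 h, and the change missed the threshold (log2 change 0.46 ± 0.14, adjusted p = 0.0558), although it passed without 3 h replicate 1 (adjusted p = 0.0369). Thus the 3 neighbours had 3 h changes of 0.46 ± 0.14, 0.79 ± 0.13 and 0.53 ± 0.14 in their genomic order.

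Psi, the P-element somatic inhibitor, blocks splicing of a transposon intron in somatic cells. Its signal was 252 and 269.9 in DMSO, 455 and 429.7 at 3 h, 415 and 321 on the 6 h arrays and 276 and 355 at 12 h. Both 3 h arrays, both 6 h arrays and both 12 h arrays exceeded DMSO, although 1 of the 12 h arrays lay close to it. Psi rose 1.63-fold at 3 h (log2 change 0.71 ± 0.17, adjusted p = 0.0219), and the change at 6 h was 0.45 ± 0.17 (adjusted p = 0.126). The 3 h call rested on all 4 arrays compared, with an adjusted p of 0.112 and 0.0869 without a DMSO array and 0.116 and 0.0809 without a 3 h array. It also narrowly missed the threshold with quantile normalization (0.0509) and median centring (0.0626). Neither qkr54B, another STAR-family relative (3 h change 0.56 ± 0.21, adjusted p = 0.0999), nor mub, a KH protein first described in the mushroom bodies of the brain (change 0.26 ± 0.24, adjusted p = 0.523), was called at any time.

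pasilla (ps), the fly relative of the mammalian Nova splicing regulators, has 4 probe sets that did not give the same answer. On the brightest, the signals were 331 and 258 in DMSO, 395 and 444 at 3 h, 367 and 301 on the 6 h arrays and 271 and 219 at 12 h. Both 3 h arrays lay above DMSO, the lower of them by less than the gap between the DMSO arrays, and the change was not called (log2 change 0.48 ± 0.18, adjusted p = 0.101). A dimmer probe set gave 22.9 and 18.7 in DMSO, 139.8 and 149 at 3 h, 99.8 and 91.3 on the 6 h arrays and 53.2 and 87 at 12 h, so the groups at 3, 6 and 12 h all lay clear of DMSO. There the change was called at 3 h (log2 change 1.89 ± 0.31, adjusted p = 0.00382) and at 6 h (log2 change 1.40 ± 0.31, adjusted p = 0.0196), but not at 12 h (log2 change 1.03 ± 0.31, adjusted p = 0.0888). Its DMSO signals are below the filter value of 61.5, and it passed the filter, which uses the mean of all arrays, through its JH III signals. The remaining probe sets of ps stayed under the filter, at signals no higher than 61.5 on any array. Its calls are therefore no independent support for a rise of ps. Averaging the probe sets gave log2 changes of 1.19 at 3 h and 0.78 at 6 h, which rest on this dim probe set. Whether the probe sets read different transcripts of the gene was not tested.

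**Figure D2:**
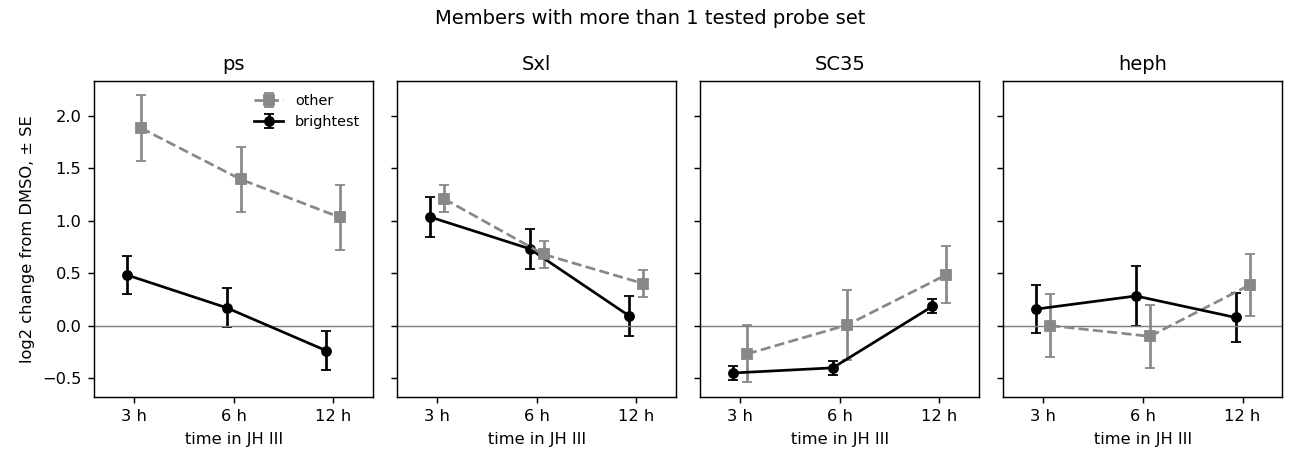
For genes with more than 1 tested probe set, the log2 change from DMSO at 3, 6 and 12 h is drawn for the brightest probe set (black circles) and the other (grey squares), with SE. The Sxl probe sets run together at 3 and 6 h, whereas those of ps are apart, at 0.48 and 1.89 at 3 h.

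Sex-lethal (Sxl), the switch gene of female development that acts by blocking splice sites in its own and other transcripts, roughly doubled at 3 h. On its brightest probe set the signals were 521 and 367 in DMSO, 1028 and 832 at 3 h, 864 and 640.5 on the 6 h arrays and 469.7 and 466 at 12 h. The 3 h and 6 h arrays all lay above both DMSO arrays, and the 12 h arrays lay between the DMSO arrays. The second probe set gave 336 and 316 in DMSO, 831 and 745 at 3 h, 531 and 544 on the 6 h arrays and 399 and 481 at 12 h, with the same order of DMSO, 3 h and 6 h and no overlap with DMSO at 12 h. Sxl rose 2.05-fold at 3 h (log2 change 1.04 ± 0.19, adjusted p = 0.00649) and 1.66-fold at 6 h (log2 change 0.73 ± 0.19, adjusted p = 0.035), and the second probe set rose 2.32-fold (log2 change 1.21 ± 0.13, adjusted p = 0.000711) and 1.6-fold (log2 change 0.68 ± 0.13, adjusted p = 0.0101). On the brightest probe set the 3 h call missed the threshold without DMSO replicate 2 (adjusted p = 0.0528) and without 3 h replicate 1 (0.0558), and the 6 h call without DMSO replicate 2 (0.212), without 6 h replicate 1 (0.193) and with median centring (0.081). At 12 h neither probe set was called (adjusted p = 0.834 and 0.107). Which splice forms of Sxl the probe sets read was not tested.

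Transformer 2 (tra2), the SR-like partner through which the sex-determination cascade reaches the doublesex exon, had signals of 841 and 927 in DMSO, 1241 and 1061 at 3 h, 978 on the readable 6 h array and 1030.4 and 1063 at 12 h. All JH III arrays lay above both DMSO arrays, by a small margin at 6 h. The rise passed only at 3 h, at 1.29-fold (log2 change 0.37 ± 0.11, adjusted p = 0.0462), with the highest adjusted p of the 12 calls. It no longer passed without DMSO replicate 1 (adjusted p = 0.227), DMSO replicate 2 (0.108), 3 h replicate 1 (0.257), 3 h replicate 2 (0.0553) or either 12 h array (0.0522 and 0.0523), or with median centring (0.199).

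SC35, an SR protein that binds exonic enhancers, went the other way from most regulators. Its brightest probe set gave 8214 and 8692 in DMSO, 6127 and 6214 at 3 h, 6135 and 6644 on the 6 h arrays and 9247 and 9983 at 12 h. The 3 and 6 h arrays lay below both DMSO arrays and the 12 h arrays lay above both. SC35 fell 1.37-fold at 3 h (log2 change -0.45 ± 0.07, adjusted p = 0.00267) and 1.32-fold at 6 h (log2 change -0.40 ± 0.07, adjusted p = 0.00655), and the 12 h value was 0.18 ± 0.07 (adjusted p = 0.152). The 3 h call was kept whichever array was left out, and the 6 h call did not pass without DMSO replicate 2 (adjusted p = 0.0685). A much dimmer probe set of SC35 gave 168 and 99.7 in DMSO, 97.8 and 109.8 at 3 h, 130.7 on the readable 6 h array and 194 and 191 at 12 h. Its 6 h array lay between the DMSO arrays (log2 change 0.005). The dimmer probe set overlapped DMSO at 3 h and was not called (3 h change -0.27 ± 0.27, adjusted p = 0.553). With both averaged, the 6 h change of SC35 was not called (0.112).

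The other SR proteins were not called on the authors' scale. B52, the fly SRp55 protein, had signals of 9271 and 9421 in DMSO, 8883 and 8771 at 3 h, 9360.3 on the readable 6 h array and 9517 and 9604 at 12 h, and SF2, an SR protein that helps U1 bind the start of introns, had 4707 and 4847 in DMSO, 4868 and 4935 at 3 h, 4794 on the readable 6 h array and 5579 and 4349 at 12 h. Their 3 h changes were -0.08 ± 0.06 and 0.04 ± 0.11 (adjusted p = 0.377 and 0.857), although with median centring B52 was called lower (log2 change -0.24, adjusted p = 0.0203). Rsf1, which represses splicing by binding SR proteins, had a 3 h change of 0.16 ± 0.09 (adjusted p = 0.274). Over the 5 SR and SR-like genes tested, the median 3 h change was 0.04, close to the 0.03 of all probe sets.

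Among hnRNP proteins, Hrb27C had the largest change from DMSO of the 28 genes. Hrb27C is an hnRNP of the A/B type that acts with Psi on the P-element intron. Its signal was 1578 and 1398 in DMSO, 3751 and 4384 at 3 h, 3079 on the readable 6 h array and 2131 and 2551 at 12 h. All 5 readable JH III arrays lay above both DMSO arrays, with the 3 h arrays highest and the 12 h arrays nearest to DMSO. It rose 2.7-fold at 3 h (log2 change 1.43 ± 0.12, adjusted p = 0.000368), 2.05-fold at 6 h (log2 change 1.04 ± 0.14, adjusted p = 0.00338) and 1.56-fold at 12 h (log2 change 0.64 ± 0.12, adjusted p = 0.02). The calls at 3 and 6 h were kept under each alternative setting that gave a value, median centring included, and the 12 h call did not hold without DMSO replicate 1 (adjusted p = 0.0735), DMSO replicate 2 (0.145) or 12 h replicate 2 (0.0719).

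glorund (glo), an hnRNP of the F/H type known from control of nanos RNA in the embryo, had signals of 2460.1 and 2778 in DMSO, 3159.7 and 3240.5 at 3 h, 3213 and 3195 on the 6 h arrays and 2389.8 and 2194 at 12 h. The 3 and 6 h arrays were all above DMSO and the 12 h arrays were both below it. It rose 1.22-fold at 3 h (log2 change 0.29 ± 0.08, adjusted p = 0.0338) and 1.22-fold at 6 h (log2 change 0.29 ± 0.08, adjusted p = 0.0414). Both calls were fragile: at 3 h the adjusted p was 0.227 and 0.0528 without a DMSO array and 0.116 and 0.149 without a 3 h array. At 6 h the adjusted p of glo was 0.248 and 0.0661 without a DMSO array, 0.138 and 0.111 without a 6 h array and 0.0686 without either 3 h array. With median centring it was 0.293 at 3 h and 0.338 at 6 h.

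Hrb87F, another A/B-type hnRNP, gave 2924 and 2985 in DMSO, 3589.8 and 3202 at 3 h, 3588 and 3699 on the 6 h arrays and 2899.8 and 2639 at 12 h. The 3 and 6 h arrays lay above DMSO, and only the 6 h rise was called (1.23-fold, log2 change 0.30 ± 0.08, adjusted p = 0.0364; adjusted p = 0.116 at 3 h). That call no longer passed without DMSO replicate 1 (adjusted p = 0.164), DMSO replicate 2 (0.145), 6 h replicate 1 (0.0979) or 6 h replicate 2 (0.124), or with median centring (0.258). Its paralog Hrb98DE, at 7983 and 7593 in DMSO and 8411 and 9487 at 3 h, was not called (log2 change 0.20 ± 0.13, adjusted p = 0.344). The polypyrimidine-tract protein heph was called on neither of its probe sets, with 3 h changes of 0.16 ± 0.23 and 0.00 ± 0.30, and those probe sets overlapped DMSO at 3 h.

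In the core machinery, the Sm proteins carried the largest change. SmB, SmD1, SmD2 and SmD3 are parts of the ring that assembles on the spliceosomal small nuclear RNAs. SmB gave 10872 and 9878 in DMSO, 6891 and 7218 at 3 h, 6669 on the readable 6 h array and 16824 and 15297 at 12 h. No array of the 3 or 6 h groups reached a DMSO array, and both 12 h arrays exceeded all others. It fell 1.47-fold at 3 h (log2 change -0.55 ± 0.08, adjusted p = 0.00246) and 1.55-fold at 6 h (log2 change -0.63 ± 0.09, adjusted p = 0.00462), then stood 1.55-fold above DMSO at 12 h (log2 change 0.63 ± 0.08, adjusted p = 0.00434). Of these calls, only the 12 h one was lost on leaving out an array, DMSO replicate 2 (adjusted p = 0.0516).

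SmD2 has 2 probe sets, and the dimmer stayed under the filter, at 80.3 and 18.1 in DMSO and 49 and 59.1 at 3 h. On the brightest, SmD2 had the same order of groups as SmB in smaller steps. Its signals there were 8432 and 9011 in DMSO, 7651 and 7589 at 3 h, 6549 on the readable 6 h array and 10149 and 9878 at 12 h. The 3 and 6 h arrays lay below DMSO and the 12 h arrays above it. The fall of 1.33-fold at 6 h was called (log2 change -0.41 ± 0.08, adjusted p = 0.0121) but lost without DMSO replicate 2 (adjusted p = 0.0882), and at 3 h the change was -0.19 ± 0.06 (adjusted p = 0.0695). SmD1 gave 4298 and 4226 in DMSO, 3704 and 3963 at 3 h, 3459 and 3699.9 on the 6 h arrays and 4688 and 4501 at 12 h, again lowest at 6 h and highest at 12 h. It fell at 6 h (log2 change -0.25 ± 0.07, adjusted p = 0.0402), a call lost on leaving out any DMSO, 3 h or 6 h array (adjusted p of 0.054 without 6 h replicate 2 to 0.181 without DMSO replicate 1). With median centring both SmD1 and SmD2 were also called lower at 3 h (0.0121 and 0.00458). SmD3 did not follow: its signals were 4458 and 4920.1 in DMSO, 4513 and 4780.2 at 3 h, 4211 and 4546 on the 6 h arrays and 3731 and 4000.1 at 12 h, overlapping DMSO at 3 and 6 h and below it at 12 h (log2 change -0.28 ± 0.08, adjusted p = 0.0709).

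U2af38 and U2af50, the subunits that read the end of the intron, both fell at 3 h. U2af38 gave 4292 and 4358 in DMSO, 3608 and 3599.8 at 3 h, 3492 on the readable 6 h array and 4268 and 4137 at 12 h, and U2af50 gave 4374 and 4299 in DMSO, 3738 and 3551 at 3 h, 3812 on the readable 6 h array and 4095 and 3779.5 at 12 h. In both genes all 3 h arrays lay below DMSO, and 12 h arrays were also below it. U2af38 fell 1.2-fold at 3 h (log2 change -0.26 ± 0.06, adjusted p = 0.0231) and 1.24-fold at 6 h (log2 change -0.31 ± 0.08, adjusted p = 0.0355), and U2af50 fell 1.19-fold at 3 h (log2 change -0.25 ± 0.07, adjusted p = 0.0426). Every 3 h call here was lost without any one of the DMSO or 3 h arrays: the adjusted p was 0.108 to 0.146 for U2af38 and 0.11 to 0.2 for U2af50. At 6 h that of U2af38 was 0.125 and 0.165 without a DMSO array and 0.0662 and 0.0666 without a 3 h array. With quantile normalization both genes missed the threshold at 3 h (0.0809 and 0.132), and U2af38 also at 6 h (0.074). snRNP-U1-70K, a protein of the U1 particle, had a 3 h change of -0.08 ± 0.10 (adjusted p = 0.657).

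Prp8, the large protein at the catalytic centre, was the one core member that rose at 3 h. Its signals were 970.2 and 954 in DMSO, 1163 and 1262 at 3 h, 1095 on the readable 6 h array and 1024 and 1091 at 12 h. All JH III arrays lay above both DMSO arrays, and the 3 h rise of 1.25-fold was called (log2 change 0.33 ± 0.09, adjusted p = 0.0399). It no longer passed without DMSO replicate 1 (adjusted p = 0.145), DMSO replicate 2 (0.179), 3 h replicate 1 (0.0913) or 3 h replicate 2 (0.197), or with median centring (0.295). crn, a scaffold protein of the Prp19 complex, stood at 594 and 659 in DMSO and 482 and 483 at 3 h, and the change missed the threshold (log2 change -0.36 ± 0.11, adjusted p = 0.0635) except with quantile normalization (0.0408) and median centring (0.0139). For Prp19 itself, a ubiquitin ligase, the 3 h change was -0.11 ± 0.09 (adjusted p = 0.467).

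**Figure D3:**
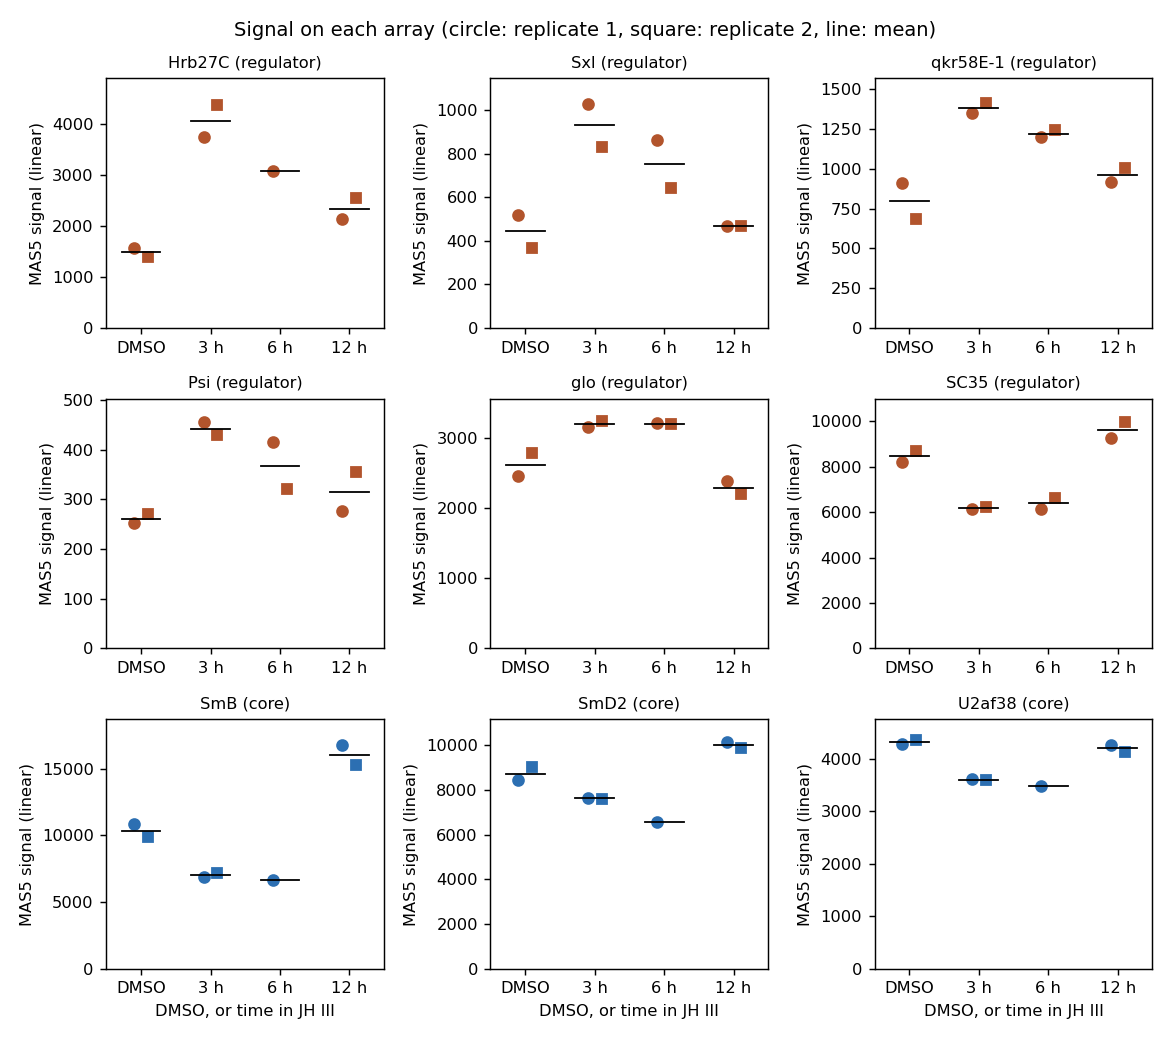
MAS5 signal on each array (points, linear axis) is drawn for genes with calls, by group. Hrb27C and Sxl peak at 3 h, and SmB is lowest at 3 and 6 h and highest at 12 h, at 15297 and 16824.

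The 12 h and 3 h arrays were compared directly, to ask whether the early changes had lessened. Of the 28 genes, 5 were higher at 12 h than at 3 h and 7 were lower, against a background of 16.5% of probe sets (7.48% higher and 9.02% lower). The 12 h and 3 h arrays did not overlap in 9 genes higher and 12 lower at 12 h (23.3% and 34.2% of all probe sets). The 4 genes called higher at both 3 and 6 h (qkr58E-1, Sxl, Hrb27C and glo) were all called lower at 12 h than at 3 h, and the 3 called lower at both (SC35, U2af38 and SmB) were all called higher. These comparisons share the 3 h arrays, so a high or low 3 h array moves both. Genes picked for their 3 h calls thus lean towards a return at 12 h. No share over all probe sets called at both times is given here, so these counts are no result about the members. SmB rose 2.27-fold from 3 to 12 h (log2 change 1.18 ± 0.08, adjusted p = 8.28e-05), SC35 1.55-fold (log2 change 0.64 ± 0.07, adjusted p = 0.00052) and SmD2 1.31-fold (log2 change 0.39 ± 0.06, adjusted p = 0.00507). Hrb27C fell 1.73-fold (log2 change -0.79 ± 0.12, adjusted p = 0.00344), Sxl 1.93-fold (log2 change -0.95 ± 0.19, adjusted p = 0.0108) and glo 1.39-fold (log2 change -0.48 ± 0.08, adjusted p = 0.00435). The count of 12 dropped to 6 without 3 h replicate 1 and to 7 without 3 h replicate 2, and Sxl lost its call without 3 h replicate 1 (adjusted p = 0.0872). Of the 28 genes, 10 differed among the 4 groups in limma's moderated F-test, where the background was 23.2% of probe sets: SC35, qkr58E-1, Sxl, Hrb27C, Hrb87F, glo, U2af38, SmB, SmD1 and SmD2.

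The distance between the classes was followed on each array as the median of the regulators minus that of the core members, after each gene was centred on its own mean. It was -0.16 and -0.23 on the DMSO arrays, 0.30 and 0.29 on the 3 h arrays, 0.24 and 0.13 on the 6 h arrays, and -0.20 and -0.14 on those of 12 h. The value of 6 h replicate 2 rests on the 13 genes readable there, 10 regulators and 3 core members. The values of the 6 h pair thus cover different sets of genes. The 3 and 6 h arrays lay apart from the DMSO arrays, while the 12 h arrays overlapped them. The class difference from DMSO in the median change was 0.50 at 3 h, 0.36 at 6 h and 0.03 at 12 h. The spread between replicates was 0.051 (SD), which includes the 6 h pair with its different sets of genes. As the members are not replicates of a condition, no test was made of the class difference. The members were also chosen with earlier results of these data known. With quantile normalization the 3 h difference was 0.48. Median centring takes the same amount from every gene of an array, so it cannot alter this 3 h difference and does not test it; the class medians were then 0.17 and -0.33.

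Brightness differed between the classes: 9 of 10 core members and 11 of 18 regulators were among the 2793 brightest of the 8380 tested probe sets. Those had a median 3 h change of -0.07, against 0.13 in the 2794 dimmest, and 14.2% of them were called higher and 20.3% lower. Among these brightest, the 11 regulators had a median change of 0.20, with 5 called higher and 1 lower, and the 9 core members had a median of -0.15, with 1 called higher and 3 lower. Of the 7 tested hemocyte markers, 6 were called higher at 3 h, 3 at 6 h and 0 at 12 h. The shares of all probe sets called higher were 10.6%, 7.32% and 3.34%. A summed signal was taken over the 7 hemocyte markers readable on all arrays: crq, Hml, NimC1, Ppn, Pxn, Sr-CI and vkg. It left out Col4a1 and srp, called at 3 h, and included NimC1 and Sr-CI, which were under the filter. That sum was 9911 to 10087 in DMSO and 14734 to 14993 at 3 h. At 6 h it was 13332 to 13718, and at 12 h 8966 to 9639. Of the 3 tested germline markers, aub, bam and zpg, only bam was called, higher at 6 h. The 3 germline markers readable on all arrays were bam, vas and zpg, which leaves out aub and includes vas, which was under the filter. These summed to 6471 to 7198 in DMSO and 7197 to 7218 at 3 h. At 6 h and 12 h their sum was 7072 to 7176 and 5615 to 6410. The part of these markers in the result was not tested. In such bulk RNA, more cells of one type and more RNA per cell cannot be told apart.

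**Figure D4:**
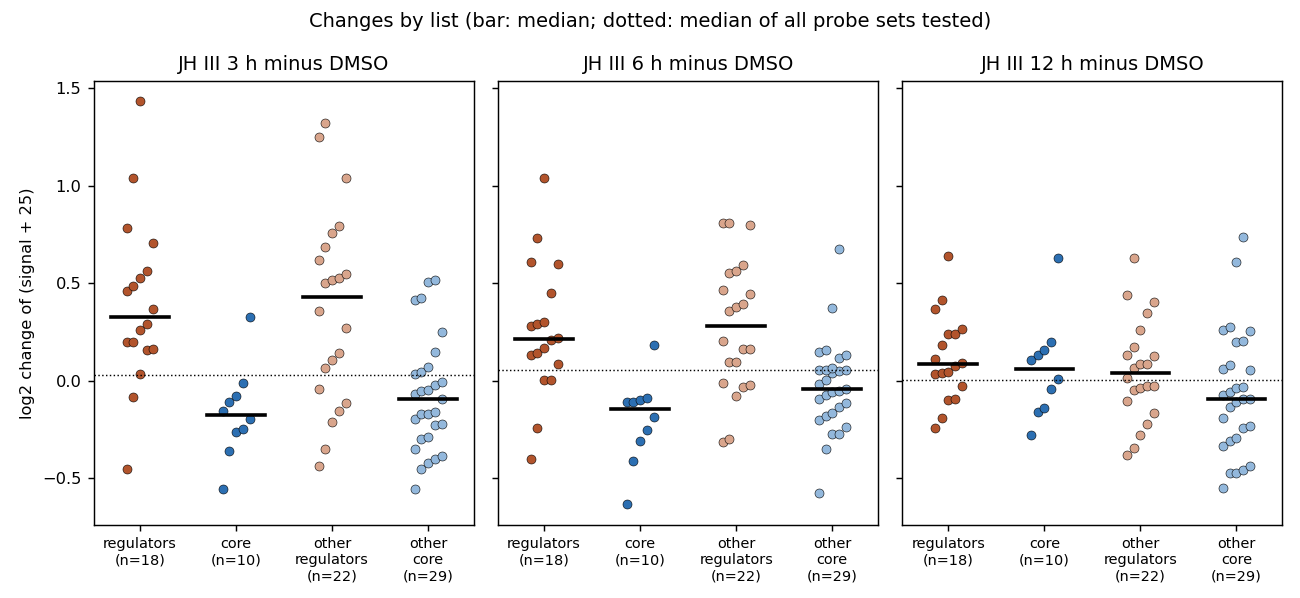
Each point is the log2 change of one gene against DMSO, by class, beside the wider lists of splicing genes, at 3, 6 and 12 h; bars mark the medians. The regulators' median stands at 0.33 at 3 h and 0.08 at 12 h, and that of the core members at -0.17 and 0.06.

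Wider lists of splicing genes were read in the same way. Of 33 other splicing regulators, 22 were tested; 9 rose at 3 h (Acn, Doa, fl(2)d, hfp, Rox8, Saf-B, spen, Syp and tra) and 1, lark, fell, with a median change of 0.43. At 6 h 5 of them rose and none fell (median 0.28), and at 12 h fl(2)d rose and bl fell (median 0.04). Of 39 other core genes, 29 were tested; 3 rose at 3 h (Sf3b3, Sf3b5 and SmF) and 3 fell (eIF4AIII, LSm7 and U4-U6-60K), with a median of -0.09. At 6 h, 2 of these rose and 1 fell (median -0.04), and at 12 h again 2 rose and 1 fell (median -0.09). LSm7, of the Lsm ring that binds the U6 RNA, was named after its values were seen, since the mean over times cancels its opposite changes. Its signals were 2152 and 2166 in DMSO, 1739.5 and 1769 at 3 h, 1380.1 and 1510.2 on the 6 h arrays and 3719 and 3527 at 12 h, so the 3 and 6 h arrays lay below DMSO and the 12 h arrays above. It fell at 3 h (log2 change -0.30 ± 0.07, adjusted p = 0.0229) and 6 h (log2 change -0.57 ± 0.07, adjusted p = 0.00209) and rose at 12 h (log2 change 0.74 ± 0.07, adjusted p = 0.00123), and 12 h minus 3 h was 1.04 ± 0.07 (adjusted p = 6.91e-05); the alternatives were not run for it. Shares of 9 in 22 and 3 in 29 called higher at 3 h stand beside the background of 10.6% (8.16% lower). The background was 7.32% higher and 6.21% lower at 6 h, and 3.34% and 2.58% at 12 h. The 12 h counts are too small to be read as a result about these lists. As the lists were chosen with earlier results of these data known, they are no independent support for the class difference.

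In the list of other regulators, fl(2)d, a subunit of the RNA methylation complex that is needed for Sxl splicing, had signals of 253 and 242 in DMSO, 612 and 703 at 3 h, 449 on the readable 6 h array and 374 and 419.9 at 12 h. All JH III arrays exceeded DMSO, and it rose at 3 h (log2 change 1.32 ± 0.14, adjusted p = 0.000865), 6 h (log2 change 0.80 ± 0.17, adjusted p = 0.0202) and 12 h (log2 change 0.63 ± 0.14, adjusted p = 0.0388). The 3 h call of fl(2)d was kept whichever array was left out; the 6 h call was lost without a DMSO array (0.0692 and 0.0945), and the 12 h call without any of the DMSO, 3 h or 12 h arrays (adjusted p up to 0.188, without DMSO replicate 2). Its partners in that complex, vir and nito, which were picked out after their values were seen, were not called: at 3 h the log2 changes were -0.11 ± 0.18 for vir (adjusted p = 0.726) and -0.04 ± 0.18 for nito (0.907). transformer (tra), whose exon choice Sxl controls, had signals of 212 and 198 in DMSO, 389 and 339.7 at 3 h, 379 and 377 on the 6 h arrays and 229 and 239 at 12 h. It rose at 3 h (log2 change 0.76 ± 0.15, adjusted p = 0.00886) and 6 h (log2 change 0.81 ± 0.15, adjusted p = 0.00895). Without DMSO replicate 2 the adjusted p of tra was 0.065 at 3 h and 0.0684 at 6 h, without 3 h replicate 1 it was 0.0726 at 3 h, and without 6 h replicate 1 it was 0.0521 at 6 h.

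Syp, an hnRNP of the Q/R type, rose from 482 and 355 to 1030.1 and 1007 at 3 h (log2 change 1.25 ± 0.15, adjusted p = 0.0013), and spen, a large RNA-binding protein that acts in gene repression, from 484 and 427 to 942 and 982 (log2 change 1.04 ± 0.12, adjusted p = 0.0011). Neither pair of groups overlapped, and both 3 h calls were kept whichever array was left out. At 6 h Syp changed by 0.81 ± 0.18 and spen by 0.60 ± 0.14, with calls (adjusted p = 0.0233 and 0.031) lost without DMSO replicate 2 (0.0903 and 0.148), and for spen also without DMSO replicate 1 (0.0674) or a 3 h array (0.0567 and 0.0574). Among the other core genes, the U2-particle subunit Sf3b5 stood at 1194 and 1204 in DMSO and 1629 and 1829 at 3 h (log2 change 0.52 ± 0.09, adjusted p = 0.00612) and 1973 and 1716 at 12 h (log2 change 0.61 ± 0.09, adjusted p = 0.00779). Those calls were lost without 3 h replicate 2 (0.0517) and without a DMSO array (0.0725 and 0.0763) respectively.

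Sf3b3, a partner of Sf3b5, stood at 1659 and 1689 in DMSO and 2325 and 2461 at 3 h (log2 change 0.51 ± 0.11, adjusted p = 0.0108), and U4-U6-60K, a protein of the tri-snRNP, at 1379 and 1254 and 938 and 1016 (log2 change -0.42 ± 0.10, adjusted p = 0.0193). The groups did not overlap in either gene. Sf3b3 lost its 3 h call without DMSO replicate 1 (adjusted p = 0.0672), DMSO replicate 2 (0.0645) or 3 h replicate 2 (0.0738), and U4-U6-60K lost its call without any one of the DMSO or 3 h arrays (0.0556 to 0.133). Prp4k, a kinase of the tri-snRNP, went from 299 and 256 to 426 and 490.1 at 6 h (log2 change 0.68 ± 0.16, adjusted p = 0.0245), a call lost without any one of the DMSO or 6 h arrays (adjusted p = 0.0601 to 0.154). With quantile normalization fl(2)d was not called at 6 and 12 h (0.0591 and 0.0516), nor were spen (0.072) and Prp4k (0.0595) at 6 h. With median centring Sf3b3 was not called at 3 h (0.0657), spen (0.0722) and Prp4k (0.0509) not at 6 h and fl(2)d not at 12 h (0.0694).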

How the data were processed

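Total RNA of L57 cells was hybridised to 8 Affymetrix arrays, 2 in each of 4 groups. The deposited table gives 1 intensity (signal) per probe set and array on a linear scale, made by the authors with MAS5, per the submitters' processing notes; version and genome build are not given in the sources used here. Every array has a trimmed mean of 500.1 over its probe sets (2% trimmed from each end), which the values themselves show, apart from 6 h replicate 2. On that array 3151 of 14010 rows (22.5%, of which 3146 are 0) lie in 2 unreadable stretches and were treated as missing; 2611 tested probe sets thus have 1 array at 6 h.

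From these values log2(signal + 25) was computed for the 13966 probe sets other than controls. The 8380 with a mean at or above the 40th percentile (signal 61.5) were fitted with limma 3.58.1 in R 4.3.3 (lmFit and eBayes with a variance trend, 4 group means, all arrays). P-values were adjusted by the Benjamini-Hochberg method over all 8380. The fit was tested on simulated data, to see that known changes at 3 h were recovered. The noise there was normal, with a spread set by brightness alone, so that test does not measure how firm the calls here are. The number of arrays, 2 per group, limits the precision.

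Genes were named through the platform's annotation and updated through RefSeq's gene table; only probe sets with 1 symbol were used, and each gene is represented by its brightest. Values per array are given for members called in any comparison or whose probe sets disagree, and for the 4 called genes of each wider list with the largest mean change over the times. The members and lists were chosen with earlier results of these data known. Arrays with the same replicate number deviated from their group means with correlations of -0.023 to 0.037, so the numbers were not taken to pair the arrays. Alternatives were the added constant, normalization, filter, trend, replicate block, probe-set rule, readable probe sets and leaving out each array. Sequences were not used here.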

Additional observations from a re-analysis of the deposited data

Results flagged for a closer look

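The following genes were singled out because their signal at 12 h of JH III differed from that at 3 h in a limma test of the difference itself, 12 h minus 3 h, on the log2 scale. The same test called 16.5% of all probe sets, 7.48% higher and 9.02% lower. No DMSO array is matched in time, so time in culture and time in hormone cannot be told apart in it. Of the genes singled out, 5 were higher at 12 h. SmB differed by 1.18 ± 0.08 (adjusted p = 8.28e-05), SC35 by 0.64 ± 0.07 (0.00052) and SmD2 by 0.39 ± 0.06 (0.00507), and none of these calls was lost when 1 array was left out. SmD1 differed by 0.26 ± 0.07 (0.0305) and U2af38 by 0.22 ± 0.06 (0.048). SmD1 lost its call without either DMSO array, either 3 h array or 12 h replicate 1 (adjusted p up to 0.192, without 3 h replicate 1), and U2af38 without any one of the DMSO, 3 h or 12 h arrays (up to 0.183, without 3 h replicate 1). With quantile normalization neither SmD1 (0.101) nor U2af38 (0.0934) was called.

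The other 7 genes were lower at 12 h than at 3 h. Hrb27C differed by -0.79 ± 0.12 (adjusted p = 0.00344) and glo by -0.48 ± 0.08 (0.00435), and both calls were kept when any 1 array was left out. Sxl differed by -0.95 ± 0.19 (0.0108); without 3 h replicate 1 its adjusted p was 0.0872. The difference was -0.72 ± 0.18 for ps (0.0282), -0.52 ± 0.13 for qkr58E-1 (0.0243), -0.29 ± 0.08 for Hrb87F (0.0354) and -0.26 ± 0.08 for SmD3 (0.0466). The call of ps was lost without either 3 h array or 12 h replicate 2 (adjusted p up to 0.144), that of qkr58E-1 without either 3 h array or 12 h replicate 1 (up to 0.119), that of Hrb87F without either DMSO array, 3 h replicate 1 or 12 h replicate 2 (up to 0.227) and that of SmD3 without any one of the DMSO, 3 h or 12 h arrays (up to 0.216). With median centring SmD3 was not called either (0.0863). No cause was tested.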

How the results depend on the processing

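Across the recomputed gene results, 2373 kept direction and side of the threshold, 240 lost a call, 20 gained one and 0 reversed. The 2373 include results that were not called at the outset and so could not lose a call. They are therefore no measure of how many calls were kept. The counts of called genes moved more. At 3 h (12 called) the count was 7 with no filter, 6 with no variance trend, 6 among the 13 genes readable on all arrays and 5 to 12 when leaving out 1 array. At 6 h (10 called) it was 5, 1 and 6 under the same settings, and 1 to 10 when leaving out 1 array. At 12 h (2 called) it was 5 with median centring, 0 with no variance trend, 0 among genes readable on all arrays and 0 to 2 when leaving out 1 array. For 12 h against 3 h (12 called) it was 4 with no variance trend, 7 among readable genes and 6 to 12 when leaving out 1 array. For any difference (10 called) it was 3, 6 and 5 to 11. With the replicate number as a block (replicate block), 8 were called at 3 h, 6 at 6 h, 2 at 12 h, 11 for 12 h against 3 h and 10 for any difference. The regulators minus core difference was 0.50 at 3 h, 0.62 among readable genes and 0.48 to 0.51 without 1 array. At 6 h it was 0.36, and 0.34 to 0.44 without 1 array. At 12 h it was 0.03, reversed to -0.034 without DMSO replicate 2 (range -0.034 to 0.10), and was 0.18 with probe sets averaged and 0.30 among readable genes. Fewer genes were tested where only readable probe sets were used; other causes were not tested. Any difference was not run with only the groups compared, and without 6 h replicate 1, genes unreadable on replicate 2 had no 6 h value.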
